A study of Solanum pimpinellifolium with 6 samples.

Results

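Of the 34723 tomato genes with values in this series, 7 encode the enzymes that carry carotenoid synthesis through phytoene to lycopene. They were matched by gene identifier and chosen with earlier results of these data known. They are the phytoene synthase genes PSY1 (Solyc03g031860), PSY2 (Solyc02g081330) and PSY3 (Solyc01g005940), the phytoene desaturase gene PDS (Solyc03g123760), the zeta-carotene isomerase gene ZISO (Solyc12g098710), the zeta-carotene desaturase gene ZDS (Solyc01g097810) and the carotenoid isomerase gene CRTISO (Solyc10g081650). All 7 identifiers were found, and the description deposited with each names the same enzyme. RNA was sequenced from young fruits, 2 days post anthesis, of hand-pollinated flowers of the currant tomato Solanum pimpinellifolium LA1589. The plants were 2 months old. By the labels, 3 libraries came from the transgenic RNAi line 207, whose silencing target is read from the series title as the zinc finger factor SlZFP2, and 3 from its nontransgenic sibling of wild-type genotype. Line 207 is a single transgenic line, and the promoter that drives the RNAi construct is not given in the sources used here.

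Phytoene synthase joins a pair of geranylgeranyl diphosphate molecules into phytoene and is widely held to be the main control point of the pathway. PDS and ZDS then lengthen the conjugated chain, while ZISO and CRTISO turn cis bonds into the trans form, and the product is the red pigment lycopene. Lycopene is cyclised to carotenes and xanthophylls, and the cleavage of xanthophylls starts the synthesis of abscisic acid (ABA). In tomato, PSY1 serves the chromoplasts of ripening fruit, PSY2 the chloroplasts of green tissue, and PSY3 is linked to roots. The comparison asks whether transcripts of these steps differed between the labelled line 207 and labelled sibling fruits, since line 207 was picked, by the series design, for a defect in fruit set and in making ABA.

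Values are taken as FPKM, which divides fragment numbers by the length of the gene and the depth of the library, so that levels of different genes can be set side by side. The silencing target was the higher in every labelled line 207 library, although line 207 is labelled an RNAi line. Whether reads from the RNAi construct itself were counted for this gene is not given in the sources used here. SlZFP2 measured 10.3, 9.03 and 7.45 FPKM in the line 207 libraries by label, against 2.89, 3.05 and 0.00147 FPKM in those labelled sibling, so every direction below is one between labels. The difference, 1.97 on the log2 scale, did not pass (limma adjusted p = 0.112), and the authors' deposited q for SlZFP2 is 1, the mark of an untested gene. By an estimate from low values, the labelled line 207 libraries were also the shallower ones. Their estimated depth was 0.386, 0.497 and 0.78 relative to labelled sibling replicate 1, against 1, 0.802 and 0.861 in the labelled siblings. Labelled line 207 replicate 3 was close to labelled sibling replicate 2. One protocol label names shoot tips. The carpel gene TAG1 measured 60.6 to 90.6 FPKM in labelled line 207 and 16.7 to 24.4 in labelled siblings. The ovary marker TAGL1 measured 72, 70.9 and 0.0124 FPKM in labelled line 207 and 28.2, 0.000922 and 30.9 in labelled siblings. The ovary markers TAGL11 and CRCa were at or near 0 in every library but labelled sibling replicate 3, where they measured 5.33 and 3.05 FPKM. The 3 shoot apex markers summed to 1.99 to 5.14 FPKM in labelled line 207 and 2.12 to 5.84 in labelled siblings, with CLV3 at 0 throughout. The pollen gene LAT52 measured 6.71 to 8.24 FPKM in labelled line 207 and 7.58 to 39.4 in labelled siblings.

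**Figure D1:**
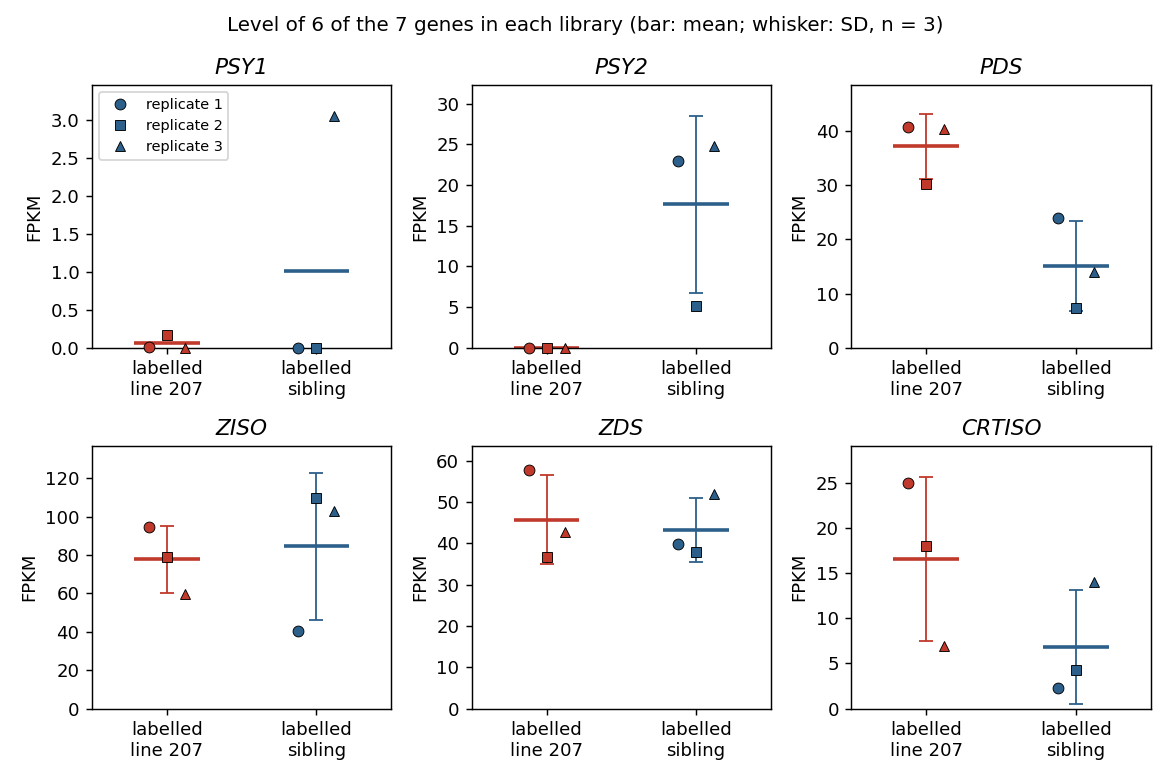
FPKM of 6 of the 7 genes in each library, with labelled line 207 in red on the left and labelled sibling in blue on the right of each panel. Horizontal bars are means, whiskers are SDs over 3 libraries (not drawn for PSY1 or for PSY2 in labelled line 207), and symbols mark the replicate number. PSY2 is near 0 in labelled line 207 and lies at 5.17 FPKM or more in the labelled siblings, PDS does not overlap between the groups, and ZISO, ZDS and CRTISO do. PSY3, not drawn, was listed at 0 in all 6 libraries.

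Among the 7 genes, PSY2 was lower in the libraries labelled line 207, PDS had a higher mean that missed the threshold, and the rest showed no difference that passed. Differences were tested with limma, a linear model fitted over all 15766 genes with at least 1 FPKM in 3 or more libraries, on log2(FPKM + 1) values. A gene was called at a Benjamini-Hochberg adjusted p of at most 0.05. Of the 5 members that met this filter, 1 was called lower and 0 higher. The called member, PSY2, met the filter only through the labelled sibling libraries, where it was high. With no filter on low values its limma adjusted p was 0.046. At an unadjusted p under 0.05 the counts were 1 lower and 1 higher. Over all tested genes 10.1% were called in either direction, 5.04% lower and 5.01% higher in labelled line 207. The median log2 fold change of the 5 members was 0.07, against -0.09 over all tested genes. For 2 of the 5 members, 1 higher and 1 lower, the groups did not overlap. Over all tested genes that share was 33.2%, made up of 15.6% higher and 17.6% lower in labelled line 207.

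The first step of the pathway held the one called member. PSY2 was at 0.0117, 0.000653 and 0.00167 FPKM in the line 207 libraries by label, against 22.9, 5.17 and 24.8 FPKM in the labelled siblings. The groups were far apart, and labelled sibling replicate 2 was itself well below the other two labelled siblings. The log2 fold change was -3.96 ± 0.67 (SE), with a 95% interval from -5.55 to -2.37 (limma adjusted p = 0.0156). With one group near 0, that size depends on the 1 added before the logarithm. It was -7.11 with 0.1 added and -2.03 with 5 added. The call was lost without labelled sibling replicate 3 (adjusted p = 0.0523) and without labelled line 207 replicate 2 (0.0534) or 3 (0.0505). In the authors' deposited table the q of PSY2 is 0.134, above the same threshold.

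No other phytoene synthase gene reached a comparable level in labelled line 207. PSY1 measured 0.015, 0.167 and 3.94e-05 FPKM in labelled line 207, against 3.36e-06, 1.25e-05 and 3.06 FPKM in labelled siblings. PSY1 thus exceeded 1 FPKM in a single library, a labelled sibling, and the gene did not meet the filter and was not tested. PSY3 was listed at 0 in all 6 libraries and was not tested either. Summed over the 3 PSY genes, the level was 0.0267, 0.168 and 0.00171 FPKM in labelled line 207, against 22.9, 5.17 and 27.9 FPKM in labelled siblings. PSY2 made up 100%, 100% and 89% of that sum in the labelled siblings. No share is given for labelled line 207, where the sum was near 0. One further gene described as a phytoene synthase (Solyc08g007440) measured 0.176 FPKM or less in labelled line 207 and 0.0681, 0.563 and 2.32 FPKM in labelled siblings. PSY1 and PSY2 are similar in sequence, and how the authors' counting divided reads between them is not given, so their separate levels are less certain than the sum.

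Values near 0 were common in this table, and they bear on how the PSY2 result can be read. With near 0 taken as at most 0.2 FPKM and a clear level as at least 5 FPKM, limits chosen after the values were seen, 44 tested genes (0.279%) were near 0 in all 3 libraries labelled line 207 and clear in all 3 labelled siblings, as PSY2 was. The opposite pattern was held by 45 genes (0.285%). Libraries of the same group also split in this way. Of 12988 genes with a clear level in some labelled line 207 library, 2237 (17.2%) were near 0 in another. Among labelled siblings the count was 1422 of 12898 (11%). The HDS gene of the precursor pathway (Solyc11g069380) was chosen here after its values were seen. It measured 0.00338, 9.4 and 0.000764 FPKM in labelled line 207 and 0.00285 FPKM or less in labelled siblings. Unlike PSY2, HDS was split within labelled line 207. Whether a value near 0 is an absence of transcript was not tested. The part that depth or the authors' estimation plays in PSY2 was not tested either.

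Most tested genes of the photosynthetic antenna were, like PSY2, called lower in labelled line 207. Chlorophyll a-b binding proteins have 34 genes by their descriptions, of which 3 were near 0 in every library. Of the 29 tested, 25 were called lower and 0 higher (limma), beside 5.04% lower and 5.01% higher over all tested genes. The summed level of the 34 genes was 4129, 2243 and 2764 FPKM in labelled line 207, against 24911, 14721 and 14341 FPKM in labelled siblings. These sums did not overlap between the groups. Among labelled siblings, replicate 1 had the highest sum and PSY2 at 22.9 FPKM. Replicates 2 and 3 had sums close to each other, with PSY2 at 5.17 and 24.8 FPKM. Whether the sums follow PSY2 was not tested. In RNA from whole fruits, fewer green cells and less RNA per cell cannot be told apart, and the part of either in the PSY2 result was not tested.

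Of the desaturase genes, PDS had groups that lay apart and ZDS had groups that overlapped. PDS, which makes the first pair of double bonds in phytoene and draws electrons through plastoquinone, measured 40.7, 30.2 and 40.4 FPKM in labelled line 207, against 24, 7.34 and 13.9 FPKM in labelled siblings. Every labelled line 207 library lay above every labelled sibling. The means were 37.1 ± 5.94 and 15.1 ± 8.37 FPKM (SD, n = 3 each), a ratio of 2.46. The log2 fold change of 1.37 ± 0.41 (SE; 95% interval 0.39 to 2.35) did not pass over all genes (limma adjusted p = 0.0843). The call depended on the test and on 1 library. In the authors' deposited table the q of PDS is 0.0397, marked as significant, as are 17.2% of the genes tested here and 7.84% of all genes with values. PDS is the 1 member of the 7 that passes there. Without labelled sibling replicate 1, its highest sibling library, it also passed in limma (log2 fold change 1.76, adjusted p = 0.0385).

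ZDS, the desaturase that acts after ZISO and yields the precursor of lycopene, measured 57.8, 36.6 and 42.8 FPKM in labelled line 207, against 39.9, 37.8 and 52 FPKM in labelled siblings. The groups overlapped. The log2 fold change was 0.07 ± 0.24 (SE; limma adjusted p = 0.886), with a 95% interval from -0.49 to 0.63. ZDS also had the narrowest spread of the 5 tested members among labelled siblings, with a highest value 1.37 times the lowest.

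The isomerases did not pass the test. ZISO, which isomerises a cis bond of zeta-carotene, measured 94.7, 79.1 and 59.6 FPKM in labelled line 207, against 40.6, 110 and 103 FPKM in labelled siblings. The labelled line 207 values lay inside the sibling range. The log2 fold change was -0.02 ± 0.40 (SE; 95% interval -0.96 to 0.93; limma adjusted p = 0.986). CRTISO, the gene of the tangerine locus, measured 25, 18 and 6.93 FPKM in labelled line 207, against 2.23, 4.3 and 14 FPKM in labelled siblings. Its means of 16.6 ± 9.1 and 6.86 ± 6.31 FPKM (SD, n = 3 each) were 2.42 apart as a ratio, but labelled line 207 replicate 3 fell below labelled sibling replicate 3. The log2 fold change of 1.31 ± 0.71 (SE; 95% interval -0.36 to 2.98) did not pass (limma adjusted p = 0.299). In the authors' deposited table q is 0.287 for CRTISO, 0.777 for ZISO and 0.792 for ZDS.

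Relatives of CRTISO were low or listed at 0. The carotenoid isomerase-like gene Solyc05g010180 measured 0.692, 3.54 and 6.53 FPKM in labelled line 207 and 5.86, 0.00483 and 7.4 FPKM in labelled siblings. Its values overlapped widely. A further gene described as carotenoid isomerase-like (Solyc07g021640) was listed at 0 in all 6 libraries.

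**Figure D2:**
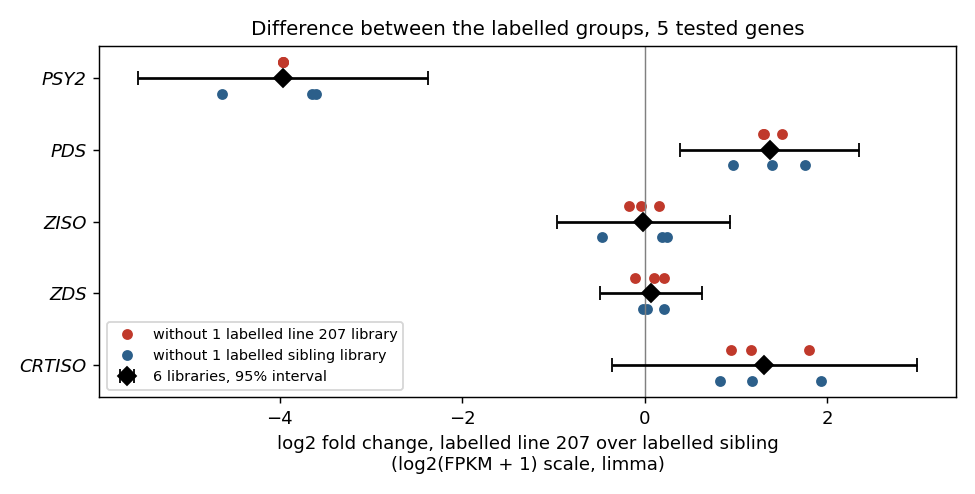
Log2 fold change of the 5 tested genes, labelled line 207 over labelled sibling, on the log2(FPKM + 1) scale. Black diamonds with whiskers are the fit over 6 libraries with its 95% interval, red points the fits without 1 labelled line 207 library and blue points those without 1 labelled sibling library. PSY2 stays between -4.63 and -3.60, PDS and CRTISO stay above 0, and ZISO and ZDS have points on both sides of 0.

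The order of levels within the pathway was the same in both groups for ZISO, ZDS, PDS and CRTISO, while PSY2 stood between ZDS and PDS among labelled siblings. In labelled line 207 the means ran ZISO 77.8, ZDS 45.8, PDS 37.1, and CRTISO 16.6 FPKM, with PSY1 and PSY2 near 0 and PSY3 at 0. In labelled siblings they ran ZISO 84.5, ZDS 43.2, PSY2 17.6, PDS 15.1, CRTISO 6.86 and PSY1 1.02 FPKM, again with PSY3 at 0. ZISO exceeded ZDS in every library, although their ranges overlapped among labelled siblings. In labelled line 207 the ranges of ZDS and PDS overlapped, while those of PDS and CRTISO did not. Among labelled siblings PSY2 and PDS could not be ordered, since PSY2 was the higher in 1 of 3 libraries, and CRTISO exceeded PDS in 1 of 3. Over all 6 libraries the mean of ZISO lay above 89.9% of the tested genes, that of ZDS above 82% and that of PDS above 71%. CRTISO and PSY2 lay above 49.4% and 41.3%.

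The 7 levels summed to 218, 164 and 150 FPKM in labelled line 207, against 130, 165 and 211 FPKM in labelled siblings, so the sums overlapped. The means of the sums were 177 ± 36.1 and 168 ± 40.7 FPKM (SD, n = 3 each). The make-up of the sum differed for the first step. PSY2 held 0.00537% of it or less in labelled line 207, against 17.7%, 3.14% and 11.8% in labelled siblings. The share of CRTISO was 11.4%, 10.9% and 4.63% in labelled line 207, against 1.72%, 2.61% and 6.66% in labelled siblings.

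Ratios within a library are free of the scaling between libraries. ZDS, the member with a narrow spread and a small difference, was taken as the denominator after its values were seen. The ratio of PDS to ZDS was 0.704, 0.826 and 0.943 in labelled line 207, against 0.6, 0.194 and 0.268 in labelled siblings. These did not overlap, although the lowest labelled line 207 ratio was close to the highest sibling one. The ratio of CRTISO to ZDS was 0.432, 0.49 and 0.162 in labelled line 207, against 0.0559, 0.114 and 0.27 in labelled siblings, and that of ZISO to ZDS was 1.64, 2.16 and 1.39, against 1.02, 2.91 and 1.98. Both overlapped. Of the other tested genes, 26.4% had a ratio to ZDS that did not overlap between the groups.

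**Figure D3:**
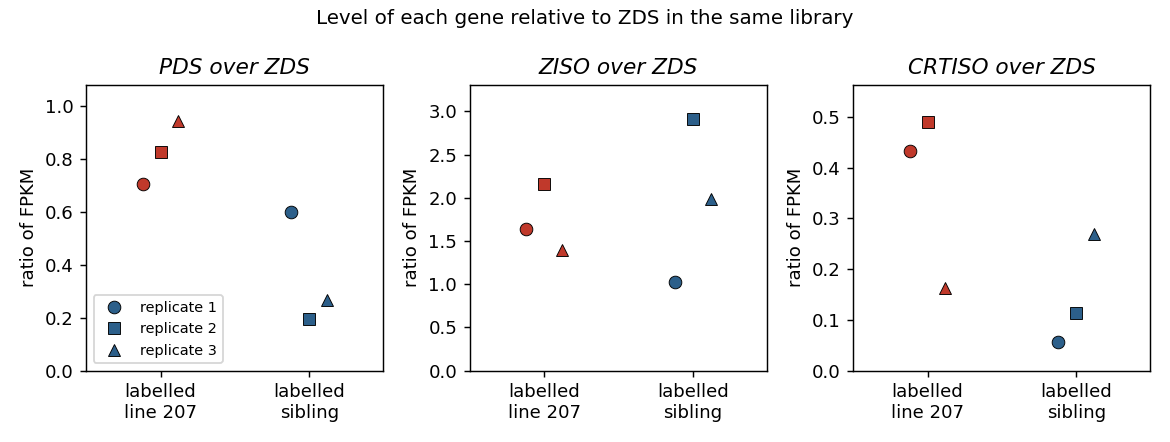
FPKM of PDS, ZISO and CRTISO divided by the FPKM of ZDS in the same library, with labelled line 207 in red on the left and labelled sibling in blue on the right, and symbols for the replicate number. The PDS ratios run from 0.704 to 0.943 in labelled line 207 and from 0.194 to 0.6 in labelled siblings, while the ZISO and CRTISO ratios overlap between the groups.

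Among labelled siblings, the spread between replicates was wider than the median of like-level genes for 4 of the 5 tested members. Among labelled siblings the highest value exceeded the lowest by 6.29 times for CRTISO, 4.81 for PSY2, 3.26 for PDS and 2.71 for ZISO. For 9791 tested genes with sibling means of 5 to 100 FPKM, the median of this ratio was 1.71, and it was smaller than that of CRTISO in 92.2% of them, of PSY2 in 89.9%, of PDS in 83.2% and of ZISO in 77.9%. In labelled line 207 the ratio was 1.34 for PDS, 1.58 for ZDS, 1.59 for ZISO and 3.6 for CRTISO, with a median of 1.71 over the same 9791 genes, so that CRTISO alone of these 4 lay above it. The members did not vary together among labelled siblings. Replicate 2 had the lowest PSY2 and PDS and the highest ZISO, and replicate 1 had the lowest CRTISO and ZISO.

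The genes closest to 3 members in pattern were found by the root mean square difference between log2(FPKM + 1) values over the 6 libraries, each gene centred on its own mean. For PSY2 the closest was Solyc11g066240, described as an unknown protein, at a difference of 0.31, followed by the B3 family factor gene Solyc02g055370 and the unknown protein gene Solyc01g006160, both at 0.42. All 3 were at 0.0338 FPKM or less in labelled line 207, which follows from their choice by likeness to PSY2. Like PSY2, these genes met the filter only through the labelled siblings. For ZISO the closest were genes described as calmodulin-binding transcription activator 2 (Solyc01g105230, 0.12), an ACT domain-containing protein (Solyc01g010000, 0.13) and serine O-acetyltransferase (Solyc02g082850, 0.14). For ZDS they were Solyc09g083270 (0.066), the ubiquitin-protein ligase gene Solyc01g057900 (0.082) and Solyc01g088140 (0.085). No other member was among the 3 genes closest to PSY2, ZISO or ZDS. The profiles of ZDS and ZISO differed by 0.47, and that of PSY2 from every other tested member by 2.1 to 2.8.

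Upstream, 1 gene of the plastid pathway that supplies the isoprenoid units was lower by label. Of 13 listed precursor genes, 11 were tested. Of these, 1 was called lower and 0 higher (limma), beside 5.04% lower and 5.01% higher over all tested genes. At an unadjusted p under 0.05 there were 5 lower and 0 higher. The median log2 fold change was -0.42, against -0.09 over all tested genes. DXR, which makes methylerythritol phosphate, was the called gene, at 30.4 ± 4.17 FPKM in labelled line 207 and 61.4 ± 13.9 FPKM in labelled siblings (SD, n = 3 each; log2 fold change -0.98, adjusted p = 0.0397). The call did not survive the omission of any single library (adjusted p from 0.0527 to 0.12), while the authors' deposited q is 0.000439. CMK, a kinase of the same pathway, averaged 43 ± 8.12 against 83.6 ± 18.6 FPKM in labelled siblings (SD, n = 3 each; adjusted p = 0.0553). MCT, which acts between them, averaged 28 ± 7.52 against 47.4 ± 0.952 FPKM in labelled siblings (SD, n = 3 each; adjusted p = 0.0896). For 6 of the 11 genes there was no overlap between the groups, with 5 of them lower in labelled line 207, beside 33.2% without overlap and 17.6% lower over all tested genes. Of the geranylgeranyl diphosphate synthase genes, which make the direct substrate of PSY, GGPPS1 was not tested, and GGPPS2 and GGPPS3 were not called. GGPPS2 measured 8.2, 9.47 and 6.24 FPKM in labelled line 207 and 5.77, 6 and 5.75 FPKM in labelled siblings. Its groups did not overlap (limma adjusted p = 0.592). GGPPS3 averaged 19.2 ± 5.83 against 15.8 ± 4.68 FPKM in labelled siblings (SD, n = 3 each; adjusted p = 0.685).

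Downstream of lycopene, the changes that passed went both ways. Of 18 listed genes, 13 were tested. Of these, 2 were called higher and 1 lower (limma), beside 5.01% higher and 5.04% lower over all tested genes. The median log2 fold change was 0.52, against -0.09 over all tested genes. For 8 of the 13 genes the groups did not overlap, 4 higher and 4 lower, beside 33.2% over all tested genes. NCED1, the rate-limiting dioxygenase of ABA synthesis, was 15.7-fold higher in labelled line 207 (limma adjusted p = 0.00226), but its q in the authors' deposited table, 0.0785, does not pass. BCH2, a hydroxylase that turns beta-carotene to xanthophyll, was 6.09-fold higher (adjusted p = 0.0189), a call lost without any 1 of the 3 labelled line 207 libraries. CCD4B, a carotenoid cleavage dioxygenase, measured 7.41, 5.74 and 5.54 FPKM in labelled line 207, against 48.9, 47.3 and 23.9 FPKM in labelled siblings. It was 6.42-fold lower in labelled line 207, with no overlap (log2 fold change -2.45 ± 0.36 (SE), adjusted p = 0.00963), and the call held without each library in turn. ZEP, the zeaxanthin epoxidase, and NCED2 missed the threshold (adjusted p = 0.0639 and 0.0747), while both pass by the authors' deposited q (0.00152 for ZEP and 0.00472 for NCED2). The lycopene cyclase genes that act directly on lycopene were at low levels. LCYB2, CYCB and LCYE averaged 3.8, 2.54 and 5.31 FPKM in labelled line 207 and 2.75, 1.42 and 5.08 FPKM in labelled siblings, and none was called (adjusted p from 0.602 to 0.701). LCYB2 and LCYE were near 0 in labelled sibling replicate 3, at 6.42e-05 and 0.000264 FPKM. LCYB1, which was not tested, measured 0.00149, 3.64 and 0.000297 FPKM in labelled line 207 and 0.359 FPKM or less in labelled siblings.

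**Figure D4:**
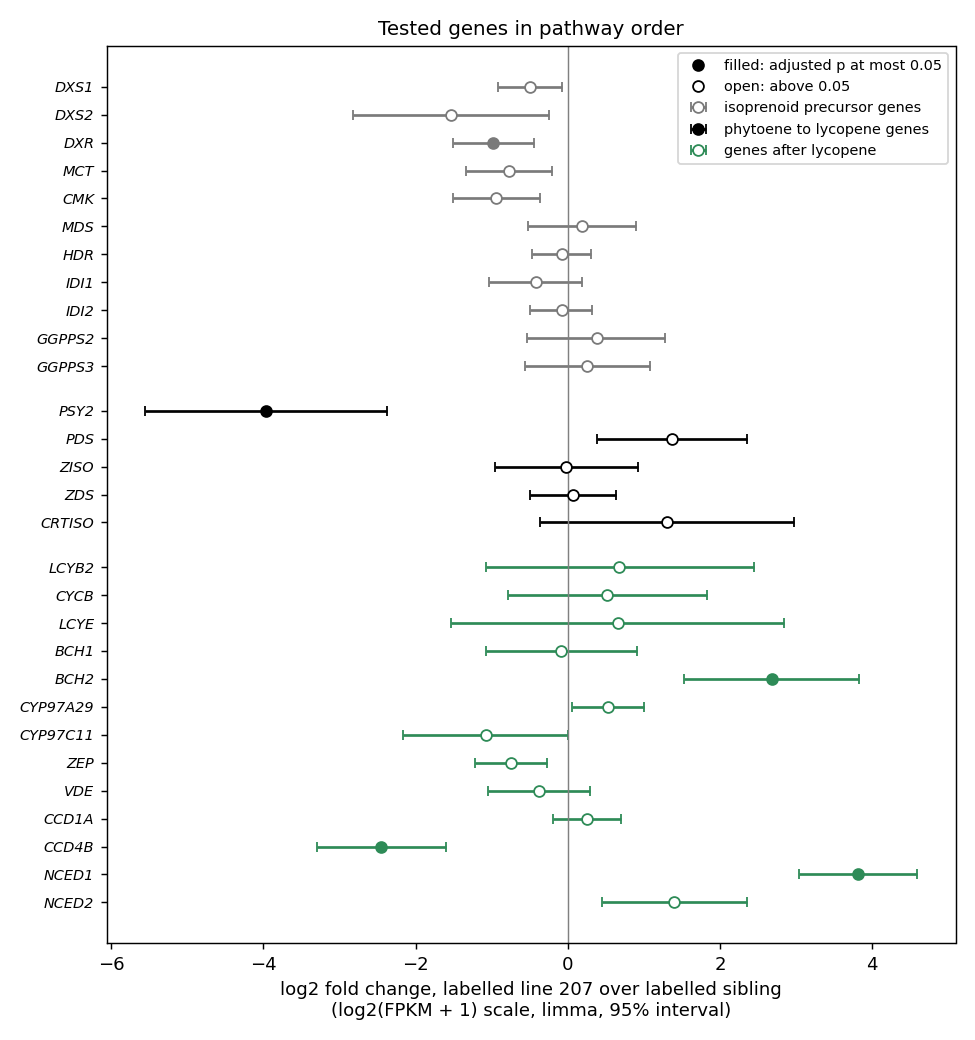
Log2 fold change with its 95% interval for every tested gene of the precursor list (grey), the phytoene to lycopene genes (black) and the list after lycopene (green), labelled line 207 over labelled sibling. Filled points passed at an adjusted p of 0.05: DXR at -0.98, PSY2 at -3.96, CCD4B at -2.45, BCH2 at 2.68 and NCED1 at 3.81.

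Of 4 factors that assist these enzymes, 0 were called higher or lower (limma), beside 10.1% of all tested genes called in either direction. At an unadjusted p under 0.05, 1 was higher. That gene was the CHRC fibrillin gene (Solyc02g081170), whose product coats carotenoid-storing bodies in plastids. It measured 288, 325 and 278 FPKM in labelled line 207, against 46.7, 129 and 164 FPKM in labelled siblings (adjusted p = 0.0696), with no overlap and an authors' deposited q of 0.000439 in their table. OR, a chaperone that stabilises phytoene synthase protein in Arabidopsis, averaged 48.8 ± 11.2 FPKM in labelled line 207 and 41.8 ± 16.3 FPKM in labelled siblings (SD, n = 3 each; adjusted p = 0.67).

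Among 11 listed regulators 8 were tested. Of these, 2 were called higher and 0 lower, beside 5.01% higher and 5.04% lower over all tested genes. At an unadjusted p under 0.05 there were 3 higher and 0 lower (limma). SGR1, a stay-green protein of chlorophyll breakdown that also binds PSY1 protein in tomato, measured 139, 110 and 107 FPKM in labelled line 207, against 8.28, 15.8 and 31.7 FPKM in labelled siblings. The groups were well apart, at a log2 fold change of 2.79 ± 0.44 (SE; adjusted p = 0.0119). AP2a, a ripening regulator, was 4.21-fold higher (adjusted p = 0.0103). PIF1a, which represses PSY1 in tomato fruit, measured 1.83, 2.12 and 1.81 FPKM in labelled line 207 and 0.0146 FPKM or less in labelled siblings, and did not pass (adjusted p = 0.0683). PIF1a met the filter only through the labelled line 207 libraries, where it was high. HY5, a light-signalling factor, averaged 5.37 ± 2.7 FPKM in labelled line 207 and 11.4 ± 9.1 FPKM in labelled siblings (SD, n = 3 each; adjusted p = 0.459). NOR was listed at 0 in all 6 libraries, and RIN was at or near 0 in all of them.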

How the data were processed

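RNA of 6 fruit libraries was measured by RNA sequencing (stranded mRNA kit, per the labels' protocols), 3 labelled RNAi line 207 and 3 labelled nontransgenic sibling. The series design calls them biological replicates. The authors deposited 1 table. Its library columns are taken as FPKM, since the values are not whole and TopHat 1.3.2 and Cufflinks appear per the submitters' processing notes. Neither the unit nor the build, annotation or library scaling is given in the sources used here. A p-value and a q-value per gene, set to 1 for untested genes, were also deposited. Rows without values (4 of 34727) were dropped.

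Relative depth was read from the commonest ratio of low values, 0.2 to 3 FPKM, to those of labelled sibling replicate 1. That ratio held for 63 of 848, 74 of 964 and 183 of 1240 low genes in labelled line 207. For labelled sibling replicates 2 and 3 it held for 213 of 1447 and 165 of 1503, so these depths are approximate. Read totals are unknown, so no counting interval is given. limma 3.58.1 (R 4.3.3, eBayes with a trend, two-sided) was fitted to log2(FPKM + 1) for 15766 genes with at least 1 FPKM in 3 libraries. That scale understates the change of low genes. The fit was run on simulated data with normal noise. Recovery of known changes was required only at a spread well below the fitted one, so that check does not cover the spread of these data. Ratios and SDs were computed with pandas 2.3.3.

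Members, lists and tests were chosen with earlier results of these data known. Gene symbols were paired with identifiers from the literature by memory and set against the deposited descriptions. The reference gene table matched 0 identifiers, so no coordinates or sequences are given. Named genes were all members, the target, in each list every called gene and the 2 uncalled ones with the smallest p, relatives by description, and the 3 genes closest in pattern to PSY2, ZISO and ZDS. Genes outside this rule were chosen after their values were seen. Alternatives covered the pseudocount, filters, scalings, prior, replicate block, the authors' q and each library left out.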

Additional observations from a re-analysis of the deposited data

How the results depend on the processing

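Read totals are unknown and each group has 3 libraries, so values near 0, such as those of PSY1 and PSY2, are read with caution. With 1 library left out, genes called higher ranged from 310 to 660 and lower from 282 to 559, members called from 0 to 1 in each direction, precursor genes lower from 0 to 1, genes after lycopene higher from 1 to 2 and helpers higher from 0 to 1. Each such fit also has fewer samples. The log2 fold change ranged from -4.63 to -3.60 for PSY2, 0.97 to 1.76 for PDS, 0.82 to 1.93 for CRTISO, -0.47 to 0.24 for ZISO (0.16, 0.24 and 0.19 without labelled line 207 replicate 3, sibling replicate 2 and sibling replicate 3) and -0.11 to 0.21 for ZDS (-0.11 and -0.02 without labelled line 207 replicate 1 and sibling replicate 2). The signs of ZISO and ZDS are thus not settled.

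By the authors' deposited q, 1226 genes were higher and 1496 lower. Of the members 1 was higher, PDS (log2 fold change 1.37, q 0.0397), and 0 lower, with PSY2 (log2 fold change -3.96) losing its call. Genes after lycopene called higher were again 2, but NCED2 took the place of NCED1 beside BCH2. There, 3 precursor genes and 2 genes after lycopene were lower and 1 helper was higher. Precursor calls fell to 0 with no filter, a common prior or the replicate block, and genes after lycopene called higher to 1 with no filter; the cause was not tested. The replicate block left 486 genes higher and 408 lower. Same-numbered libraries did not deviate together (correlations 0.00397, -0.00806 and -0.0105), so the numbers were not taken to pair them. PSY2 kept its call under the other pseudocounts, filters, scalings, the common prior and the block. Without any 1 library, PSY2 held 94.5% to 100% of the PSY sum in labelled siblings. With near 0 taken as at most 0.05 or 1 FPKM, settings added after seeing the data, the number of genes with the pattern of PSY2 stayed within 1.5 times of 44.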
